A study of Mus musculus with 7 samples.

Results

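Saa3, Hp, Cp and Hpx encode acute-phase plasma proteins, and they were read here on 7 single-colour short-oligonucleotide arrays of RNA from mouse fetal liver cells. The 4 genes were chosen by symbol with values of these arrays in view, out of 12393 genes read by probe sets annotated to 1 symbol. All levels and differences of the 4 are therefore given as descriptions, without a test. Saa3, Hp and Hpx have 1 probe set each and Cp has 7. The arrays hold a feeder cell layer from fetal liver (n = 1), unsorted liver endothelial progenitors (n = 1), and a Sca1+ (n = 2) and a Sca1- (n = 3) fraction, which carry or lack Sca1, a surface antigen of stem and progenitor cells. The labels do not say how the fractions were separated. The title of Sca1- replicate 1 keeps the abbreviation used for liver endothelial progenitors but leaves out the word progenitor. Strain, genotype, age and treatment, and whether replicates came from separate preparations, are not given in the sources used here. The feeder array lies in a table of its own, under another array platform, and the other 6 share 1 table. Differences between the feeder array and the others thus cannot be told apart from differences between array platforms. Replicate 1 of each fraction was deposited with the unsorted and feeder arrays (first set, 4 arrays), while Sca1+ replicate 2 and Sca1- replicates 2 and 3 form a second set of 3. That split was inferred here from the numbered titles and the processing notes, and it is not a batch that the labels name.

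The acute-phase response is a change in plasma protein production that follows inflammation or injury. Interleukin-6 acting through STAT3, and interleukin-1 and tumour necrosis factor acting through NF-kappaB, together with C/EBP transcription factors, drive these genes in hepatocytes, the main source of most acute-phase proteins in the adult. Some of the genes are also known from cells outside the hepatocyte. Mouse Saa3, a serum amyloid A protein of the inflammatory response, is expressed in macrophages and other non-hepatic cells. Hp encodes haptoglobin, which binds free haemoglobin, is made by hepatocytes and is also stored in neutrophil granules. Cp encodes the copper-carrying ferroxidase ceruloplasmin, and Hpx encodes haemopexin, which binds free haem.

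Signals were scaled to a trimmed mean of 500 on each array. A log2 difference uses a floor of 64, meaning that lower signals were set to 64. The highest signal among probe sets for bacterial control transcripts on an array serves as that array's background mark. It was 60.8 on the feeder array, 170.4 on the unsorted array, 55.2 and 82.0 in the Sca1+ replicates and 169.9, 88.2 and 50.8 in the Sca1- replicates. Whether such transcripts were spiked into the samples is not stated, and the mark holds only if they were not. Saa3 and Hp exceeded the mark on all 7 arrays, the strongest Cp probe set on 6, and Hpx on 3. Truncated RNA raises the signal of Actb probe sets at the 3' end over those at the 5' end. That ratio was 1.03 on the feeder array, 1.01 on the unsorted array, 6.83 and 2.37 in the Sca1+ replicates and 13.5, 1.87 and 1.91 in the Sca1- replicates. In such bulk samples, fewer cells of a type and less RNA per cell cannot be told apart. Of 14 endothelial marker genes, 10 exceeded the mark on the feeder array, 8 on the unsorted array, 6 and 10 in the Sca1+ replicates and 3, 7 and 9 in the Sca1- replicates. Eng and Stab2 exceeded it on all 7 arrays and Kdr, Egfl7 and Esam on 6, whereas Pecam1 did so on 3 and Tie1 and Lyve1 on none.

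Saa3 and Hp are the members above the background mark on every array, and the promoter of Saa3 is shown so that its elements can be set beside the levels of the factors that bind such elements. RefSeq places the promoter window on GRCm38.p6 at chr7:46715627-46715926, minus strand. The window runs from 250 bases before the transcription start to 50 after it, and is printed 5′ to 3′. Capitals mark each match of the C/EBP core TTNNGNAA, searched on both strands.
Saa3 promoter: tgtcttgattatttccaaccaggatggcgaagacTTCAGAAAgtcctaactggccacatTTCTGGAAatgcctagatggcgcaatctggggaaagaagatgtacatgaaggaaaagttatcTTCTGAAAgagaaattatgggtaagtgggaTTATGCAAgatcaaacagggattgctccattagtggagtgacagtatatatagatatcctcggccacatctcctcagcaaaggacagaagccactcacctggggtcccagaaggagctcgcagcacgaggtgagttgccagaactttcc

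The 4 matches in Saa3 begin 216, 191, 129 and 99 bases before the start. Each of the 2 Cp windows holds 1 match and the Hpx window holds 2. Of 32851 mouse promoter windows of the same length, 40.7% hold at least 1 match and 0.852% hold at least 4. This core was searched after the longer form TTNNGNAAT, held by 11.5% of windows, had given no match in the Saa3, Cp and Hpx windows. The same windows held no match to the STAT motif TTCNNNGAA (8.30% of windows) or a 10-base NF-kappaB motif (5.56% of windows). The TATA motif TATAAA (13.6% of windows) occurred in 1 Cp window, where it overlaps itself on the other strand.

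Saa3 stood higher on all 5 sorted arrays than on the feeder and unsorted arrays. Its signal was 983 on the feeder array and 801 on the unsorted array, against 16018 and 3429 in the Sca1+ replicates and 3661, 9325 and 8731 in the Sca1- replicates. The lowest sorted array, Sca1+ replicate 2, was 4.28 times the unsorted array, and the highest, Sca1+ replicate 1, was 20.0 times. On the log2 scale the unsorted array lay at -3.12 relative to the mean of the sorted arrays, 8.69-fold lower. The feeder and unsorted arrays differed by 0.30, less than the standard deviation of 1.10 within the sorted fractions. The unsorted and feeder levels have no replicate.

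**Figure D1:**
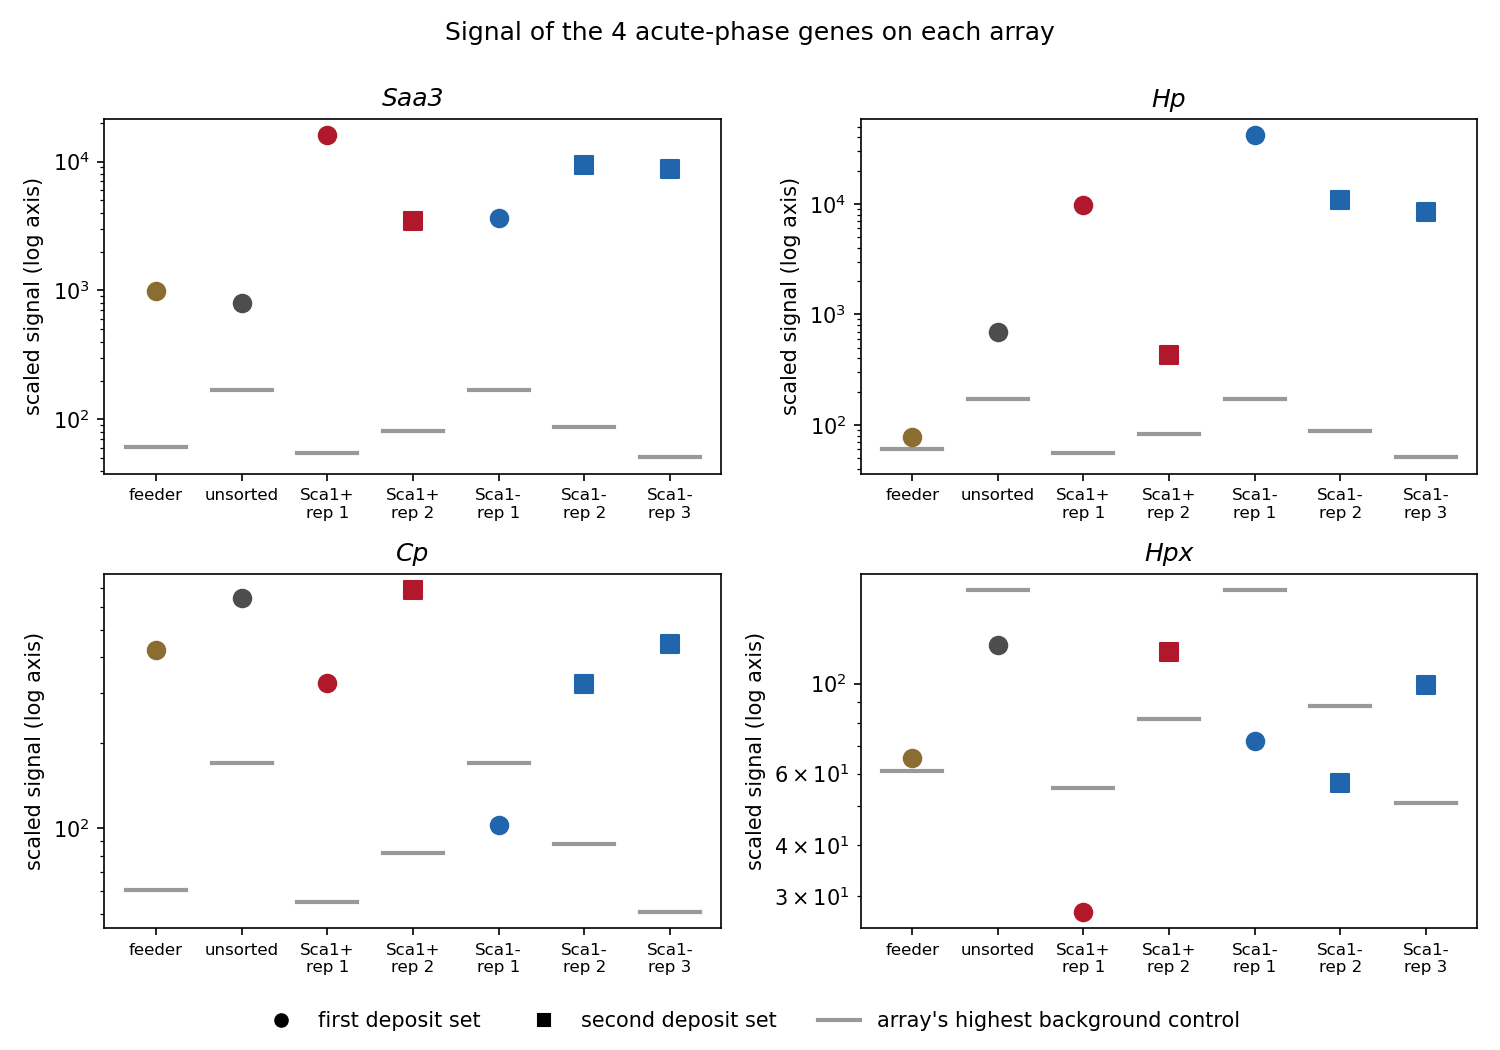
Scaled signal (log axis) of Saa3, Hp, Cp and Hpx on the feeder, unsorted, Sca1+ and Sca1- arrays, 1 point per array, with circles for the first and squares for the second deposit set. Grey bars mark each array's highest background control. All Saa3 and Hp points lie above the bars, Hp spans from 77.0 on the feeder array to 41967 on Sca1- replicate 1, and Hpx stays at 125 or below.

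Hp varied most of the 4. Its signal was 77.0 on the feeder array and 687 on the unsorted array, against 9705 and 432 in the Sca1+ replicates and 41967, 10794 and 8494 in the Sca1- replicates. Sca1- replicate 1 was highest, and Sca1+ replicate 2 was the only sorted array below the unsorted array. The highest array was 545 times the lowest over all 7 arrays and 97.0 times over the sorted arrays. The unsorted array lay at -3.34 relative to the sorted mean on the log2 scale. The feeder array lay at -3.16 relative to the unsorted array, 8.93-fold lower, and was only just above its background mark.

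Cp signals were below those of Saa3 on every array, with most arrays between 321 and 693 for the strongest probe set. Its highest array was 6.75 times its lowest. That probe set read 423 on the feeder array, 645 on the unsorted array, 324 and 693 in the Sca1+ replicates and 103, 321 and 445 in the Sca1- replicates. The value of 103 on Sca1- replicate 1 lies below the background mark of that array. A second Cp probe set read 251 on the feeder array, 399 on the unsorted array, 569 and 409 in the Sca1+ replicates and 134, 155 and 203 in the Sca1- replicates. The other 5 Cp probe sets were weaker: their highest signal was 233, and 2 of them were under the floor on every array. Hpx read 65.4 on the feeder array, 125 on the unsorted array, 27.4 and 119.6 in the Sca1+ replicates and 72.2, 56.8 and 99.2 in the Sca1- replicates. Hpx was under the floor on 2 arrays, and its differences are too close to background to order the groups.

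At a 2-fold minimum, 2 of the 4 genes (Saa3 and Hp) were lower on the unsorted array than the sorted mean, where 8.2% of 9223 genes with signal were. Cp was at least 2-fold higher there, by 1.02 on the log2 scale, as were 19.8% of those genes. That Cp difference was 0.30 with median scaling, 0.77 with quantile normalization, 0.68 with the mean of its probe sets and 0.61 without Sca1- replicate 1, whose Cp signal was below background, so it was under 2-fold in each. Between the feeder and unsorted arrays, 1 of the 4 (Hp) was lower on the feeder array by that minimum, where 15.9% of 9751 genes were. The sorted arrays also had the higher Actb ratios given above, and the part of RNA quality in these differences was not tested.

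Between the Sca1+ and Sca1- fractions, Saa3 had no common direction. In the first set its signal was 16018 in Sca1+ against 3661 in Sca1-, 4.38-fold higher. In the second set it was 3429 in Sca1+ against 9325 and 8731 in Sca1-, 2.63-fold lower. Over all sorted arrays the log2 difference was 0.15 ± 0.74 (SE), smaller than the spread between replicates. Opposite directions in the sets were shared by 1 of the 3 members tested and by 40.2% of the 8591 genes tested. Without Sca1+ replicate 1 the difference was -0.96 and without Sca1+ replicate 2 it was 1.26.

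Hp was lower in Sca1+ than in Sca1- in both sets. In the first set it was 9705 in Sca1+ against 41967 in Sca1-, 4.32-fold lower. In the second set it was 432 in Sca1+ against 10794 and 8494 in Sca1-, 22.1-fold lower. The log2 difference was -2.94 ± 1.302 (SE) over all sorted arrays and -3.46 ± 0.52 when deposit set was a block. The fractions overlapped, because Sca1+ replicate 1 exceeded Sca1- replicate 3. Without Sca1+ replicate 1 the difference was -5.18, and without Sca1+ replicate 2 it was -0.69.

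Cp was higher in Sca1+ in both sets for its strongest probe set, by 1.66 in the first and 0.87 in the second on the log2 scale. The difference was 0.95 ± 0.71 (SE) over all sorted arrays and 1.21 ± 0.34 with the block. It was 0.33 without Sca1- replicate 1, whose Cp signal was below background. The fractions overlapped for this probe set. They did not overlap for the second probe set, with a difference of 1.58, so the probe sets disagree on this point. Hpx did not pass the filter on low values and its difference of 0.18 was -0.37 with a floor of 16.

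**Figure D2:**
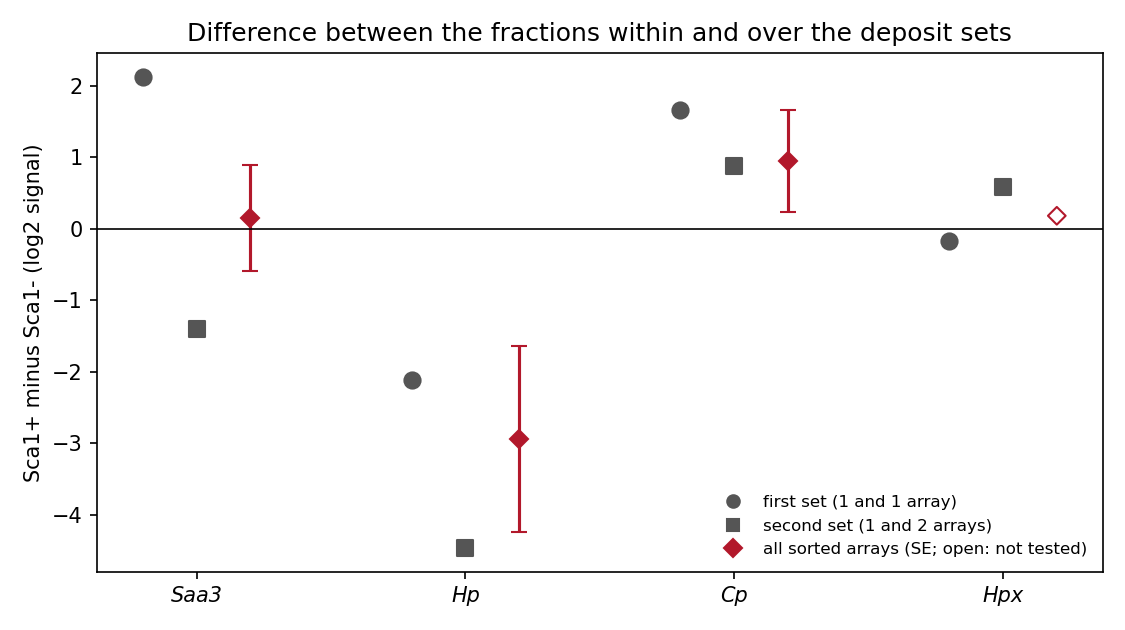
Log2 difference Sca1+ minus Sca1- of Saa3, Hp, Cp and Hpx within the first set (circles, 1 array of each), within the second set (squares, 1 Sca1+ and 2 Sca1- arrays) and over all 5 sorted arrays (diamonds with SE, open where the gene was not tested). Saa3 lies at 2.13 and -1.40 in the sets, and Hp lies below 0 in both.

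Across the whole table, limma with group as the only term called 0 of 8591 genes at an adjusted p under 0.05 (0%), with 292 at an unadjusted p under 0.05. With the deposit set, an inferred split, as a block it called 85, all lower in Sca1+ (0.989%). The members were chosen with these values known, so no call is given for them. The fractions did not overlap for 20.7% of the genes tested and for 0 of the 3 tested members.

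The Hp profile over the arrays lay closer to that of the neutrophil genes than to that of the hepatocyte genes. From high to low, its signal ran Sca1- replicate 1, Sca1- replicate 2, Sca1+ replicate 1, Sca1- replicate 3, unsorted, Sca1+ replicate 2 and feeder. The summed signal of 13 neutrophil genes had the same order except that Sca1- replicate 3 stood before Sca1+ replicate 1. That sum was 8551 on the feeder array, 62598 on the unsorted array, 136994 and 10715 in the Sca1+ replicates and 548639, 220298 and 196434 in the Sca1- replicates. All 13 genes exceeded the background mark on 4 of the 5 sorted arrays and 10 did so on Sca1+ replicate 2. S100a8, which encodes a subunit of calprotectin, read 983 on the feeder array, 14660 on the unsorted array, 38249 and 3219 in the Sca1+ replicates and 102497, 50055 and 45419 in the Sca1- replicates.

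Hepatocyte transcripts were weak and ordered otherwise. The summed signal of 18 measured hepatocyte genes was 1063 on the feeder array, 3345 on the unsorted array, 773 and 2227 in the Sca1+ replicates and 1539, 866 and 981 in the Sca1- replicates. The unsorted array, with the highest hepatocyte sum, had one of the 3 lowest Hp signals. Above the background mark were 6 of the 18 on the feeder array, 11 on the unsorted array, 6 and 9 in the Sca1+ replicates and 2, 3 and 7 in the Sca1- replicates. Alb, the albumin gene, read 102 on the feeder array, 288 on the unsorted array, 97.0 and 317 in the Sca1+ replicates and 174, 29.8 and 40.8 in the Sca1- replicates. Tat and Agt, also hepatocyte genes, were below the mark on every array. How far cells of either type contribute to the Hp signal was not tested.

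Likeness was measured as the root mean square difference between log2 profiles over the 6 arrays of the larger table, each centred on its own mean. For Hp it was 0.94 to the median profile of the neutrophil genes, 2.66 to that of the hepatocyte genes, 2.55 to that of the macrophage genes and 3.88 to that of the fibroblast genes. A flat profile lay at 2.34 from Hp, and the nearest of the other 12 lists, the inducing ligands, at 2.18. The hepatocyte median, taken over 10 genes, lay at the floor on Sca1+ replicate 1 and Sca1- replicate 2. It was 6.12 on the log2 scale on Sca1- replicate 3, where the floor is 6. Distances to the hepatocyte median thus depend in part on the floor. For Saa3 the distances were 1.31 to the macrophage, 1.92 to the neutrophil, 1.99 to the hepatocyte and 2.77 to the fibroblast median, against 1.40 for a flat profile. The smallest Saa3 distance to any of the 13 lists was 1.27, to the inducing signal and transcription factors. The next was 1.305, to a list of 3 erythroid genes, just under the 1.313 of the macrophage genes. For Cp they were 0.44 to the inducing receptors, 0.71 to the macrophage, 1.04 to the hepatocyte, 1.12 to the fibroblast and 2.66 to the neutrophil median, against 0.91 for a flat profile. The points share arrays, deposit sets and scaling, so these distances are descriptions.

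**Figure D3:**
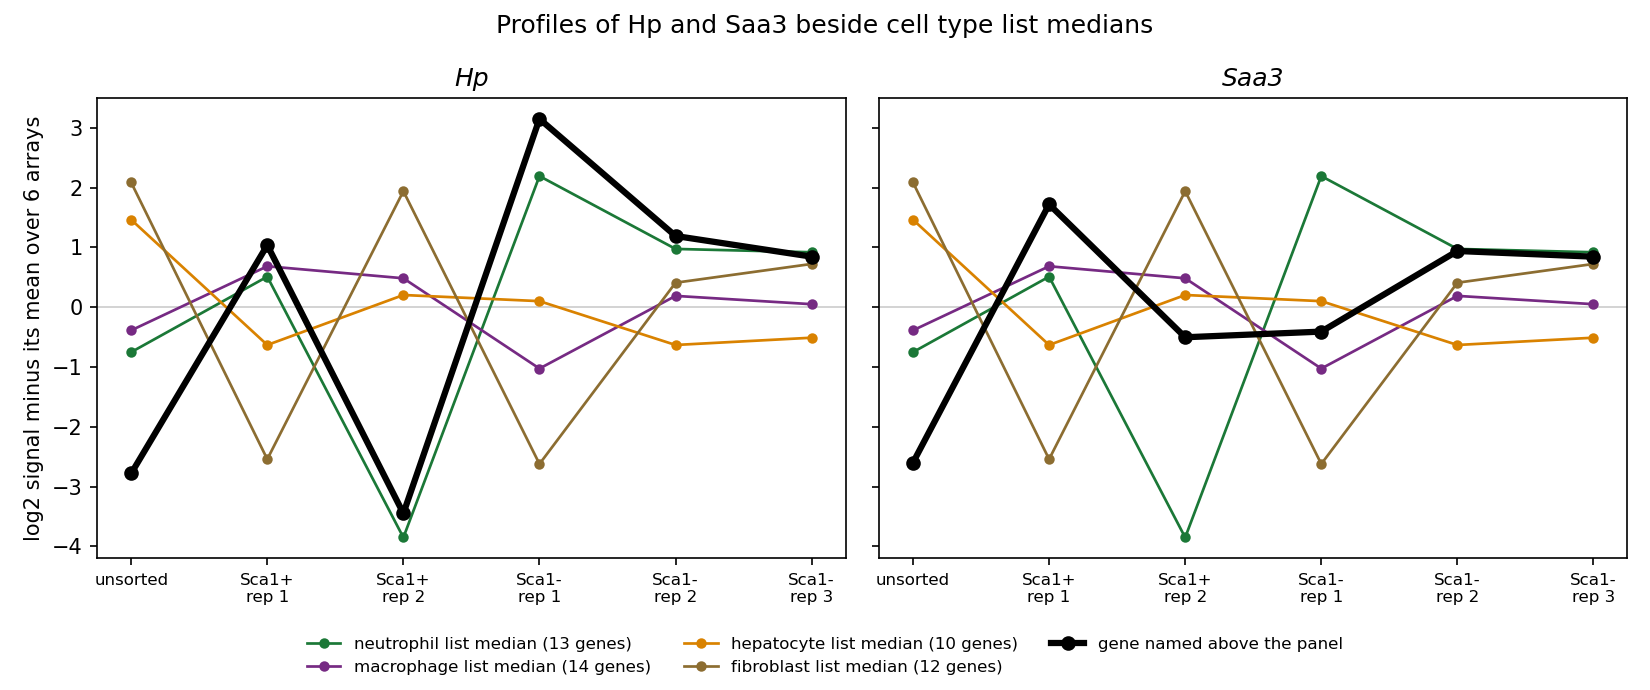
Log2 signal minus its mean over 6 arrays for Hp (left) and Saa3 (right) as thick black lines, beside the median profiles of neutrophil, macrophage, hepatocyte and fibroblast genes, on the unsorted, Sca1+ and Sca1- arrays. The Hp line runs with the neutrophil line (distance 0.94), and the Saa3 line with none of the 4.

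Macrophages are a known source of Saa3, and 12 to 14 of 15 measured macrophage genes exceeded the background mark on each array. Their summed signal was 75992 on the feeder array, 79775 on the unsorted array, 162669 and 117535 in the Sca1+ replicates and 150615, 109374 and 98318 in the Sca1- replicates. The sum was higher on all 5 sorted arrays than on the other 2, but a few bright genes carry it: Lyz2 gave 79825 and Csf1r 32741 of the sum on Sca1- replicate 1. The median log2 signal of 14 of these genes was 12.29 on the feeder array, 11.86 on the unsorted array, 12.93 and 12.73 in the Sca1+ replicates and 11.22, 12.44 and 12.30 in the Sca1- replicates. By that median Sca1- replicate 1 was the lowest array, where Saa3 lay above the feeder and unsorted arrays. Adgre1, Fcgr1, Mrc1, C1qa, C1qc, Cd5l and Msr1 were lowest there, on the array with the highest Actb ratio, 13.5. Fewer of the genes, namely Csf1r, Lyz2, C1qb and Mpeg1, were like Saa3 higher on all 5 sorted arrays than on the other 2. What share of all genes had this order was not counted. The sum varied less than 2-fold among the sorted arrays, where the Saa3 signal varied 4.67-fold. The part of RNA quality in these levels, and how far macrophages contribute to the Saa3 signal, were not tested. The macrophage scavenger receptor gene Marco was below the mark on every array. Fibroblast genes, by contrast, summed to 65389 on the feeder array, 58526 on the unsorted array, 2334 and 83227 in the Sca1+ replicates and 3639, 33774 and 31382 in the Sca1- replicates.

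The single genes nearest to Hp were Serpinb1a, an inhibitor of neutrophil proteases (distance 0.33), the neutrophil granule protease gene Ctsg (0.45) and Hdc, which encodes the histamine-forming enzyme (0.54), against a median of 2.47 over 9222 genes. Serpinb1a had signals of 178 on the unsorted array, 1340 and 15.0 in the Sca1+ replicates and 7459, 1371 and 1437 in the Sca1- replicates. All 3 were under the floor on Sca1+ replicate 2, so the distances depend in part on the floor. On the feeder array, which the distance did not use, all 3 were again under the floor.

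Nearest to Saa3 were the endocytic scaffold gene Itsn1 (0.52), the flap endonuclease gene Fen1 (0.58) and the RNA helicase gene Ddx39a (0.59), against a median of 1.56. Itsn1 read 952 on the feeder array and 57.2 on the unsorted array, the second value below both the floor and the background mark, so its distance depends in part on the floor. Nearest to Cp were Cfap36 (0.12), the proton pump assembly gene Vma21 (0.16) and the tetraspanin gene Tspan3 (0.16), against a median of 0.96. For Hpx, whose profile is almost flat, Tigd5, Syt17 and the platelet glycoprotein gene Gp1bb lay within 0.10.

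Of 22 other acute-phase genes 21 were measured, 8 could be tested, and another 8 were below the background mark on every array: Saa1, Saa4, Orm1, Orm3, Fga, Fgb, Fgg and Itih4. Saa1 and Saa2 encode the circulating serum amyloid A proteins of hepatocytes. Saa2 read 30.99 on the feeder array, 186 on the unsorted array, 68.4 and 47.2 in the Sca1+ replicates and 118, 19.8 and 39.4 in the Sca1- replicates. Orm1 and Orm3 encode orosomucoids, and Fga, Fgb and Fgg the fibrinogen chains.

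Lcn2, which encodes the iron-siderophore-binding lipocalin of neutrophil granules, read 466 on the feeder array, 6651 on the unsorted array, 10808 and 274 in the Sca1+ replicates and 83772, 17234 and 15543 in the Sca1- replicates. The fractions did not overlap, as for 20.7% of the 8591 genes tested, and Sca1+ replicate 2 was the lowest array, below the feeder array. Lrg1, a leucine-rich glycoprotein gene, read 9.40 on the feeder array, 187 on the unsorted array, 391 and 54.2 in the Sca1+ replicates and 3039, 525 and 473 in the Sca1- replicates. Lbp, which encodes lipopolysaccharide-binding protein, read 214 on the feeder array, 560 on the unsorted array, 462 and 217 in the Sca1+ replicates and 2546, 598 and 507 in the Sca1- replicates. These 3 genes, like Hp, were highest on Sca1- replicate 1.

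The complement gene Cfb ran the other way between the fractions, with 968 and 443 in the Sca1+ replicates and 9.59, 328 and 309 in the Sca1- replicates. The metallothionein genes Mt1 and Mt2, the interleukin-1 receptor antagonist gene Il1rn and the hepcidin gene Hamp, which regulates iron export, had log2 differences between -0.51 and 0.51. Besides Lcn2, the fractions did not overlap for Lrg1, Lbp, Cfb, Mt2 and Il1rn, in either direction. Of the 8 genes of this list that could be tested, 0 passed with group only. With the deposit set as a block 2 were lower in Sca1+ by limma, Lcn2 (difference -4.64 ± 0.62, SE; adjusted p = 0.0357) and Lrg1 (difference -2.96 ± 0.27, SE; adjusted p = 0.00928), and 0 were higher. By the same fit 0.989% of all 8591 genes tested were lower in Sca1+. The list was chosen with earlier results of these data known, so these calls are descriptions. The neutrophil sums given above were highest on the same array, Sca1- replicate 1, and their part in the Lcn2 and Lrg1 differences was not tested. The median difference of the 8 was -0.42, against 0.07 over all genes tested.

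**Figure D4:**
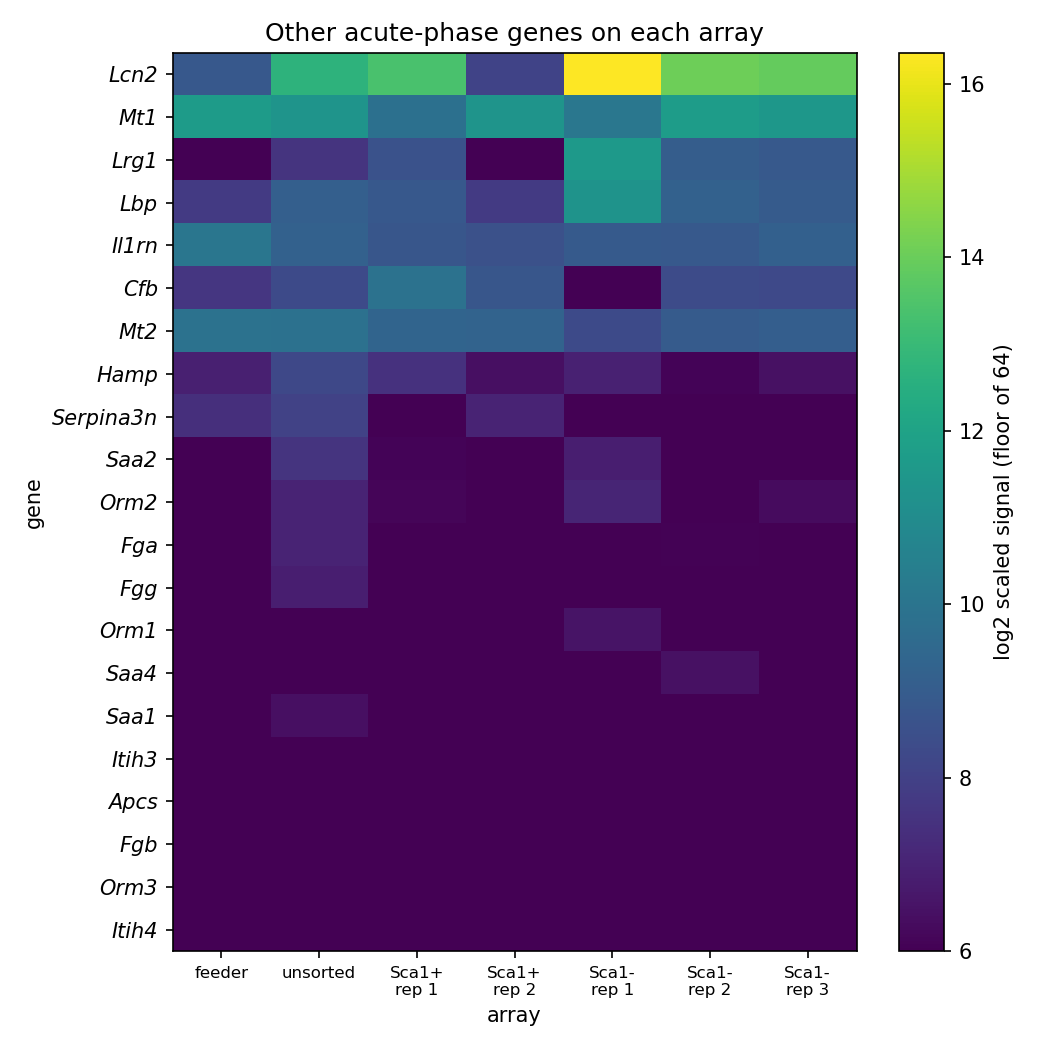
Log2 scaled signal (colour, floor of 64) of 21 other acute-phase genes in rows on the feeder, unsorted, Sca1+ and Sca1- arrays in columns, to be read along each row. Lcn2 is brightest on Sca1- replicate 1 at 83772, and most rows in the lower part lie at the floor.

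Of 6 measured genes for cytokines that induce the acute-phase response, Il1b exceeded the background mark on all 7 arrays and Tnf on 6. Il1b, the interleukin-1 beta gene, read 974 on the feeder array, 1789 on the unsorted array, 1686 and 597 in the Sca1+ replicates and 2788, 1427 and 1353 in the Sca1- replicates. Tnf read 813 on the feeder array, 97.0 on the unsorted array, 560 and 201 in the Sca1+ replicates and 441, 218 and 127.9 in the Sca1- replicates. Il6 exceeded the background mark only on the feeder array, at 275. Lif, a related cytokine gene, read 205 on both the feeder and the unsorted array, and no sorted array exceeded 94.7. Il6 was below the mark on the 5 sorted arrays, where Saa3 was high, and on the unsorted array, where Saa3 was lowest. The part of Il6 in the Saa3 signal was not tested.

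Osmr, the oncostatin M receptor gene, read 1505 on the feeder array, 1183 on the unsorted array, 84.8 and 1401 in the Sca1+ replicates and 85.75, 615 and 568 in the Sca1- replicates. The arrays ranked in the order of their fibroblast sums, except that the feeder array and Sca1+ replicate 2 changed places. Il6ra, the interleukin-6 receptor gene, read 191 on the feeder array, 448 on the unsorted array, 535 and 351 in the Sca1+ replicates and 1233, 645 and 484 in the Sca1- replicates. Il6st, the shared signal transducer gp130, and Tnfrsf1a, a tumour necrosis factor receptor, exceeded the mark on all 7 arrays. Of the 7 receptor genes and 3 ligand genes tested, 0 passed with or without the block.

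Among the transducers, Cebpd, a C/EBP factor gene induced in inflammation, read 818 on the feeder array, 900 on the unsorted array, 4992 and 1234 in the Sca1+ replicates and 14710, 3428 and 2027 in the Sca1- replicates. As for Saa3, all 5 sorted arrays lay above the other 2. Cebpb and Cebpa, the other C/EBP genes listed among the transducers, did not share that order. Cebpb read 3915 on the feeder array, 4274 on the unsorted array, 3967 and 6409 in the Sca1+ replicates and 5052, 9393 and 9086 in the Sca1- replicates. Cebpa read 2938 on the feeder array, 3091 on the unsorted array, 133 and 3451 in the Sca1+ replicates and 261, 3002 and 2907 in the Sca1- replicates. It was thus lowest on both sorted arrays of the first set, which had the highest Actb ratios, 6.83 and 13.5. Saa3 was highest on Sca1+ replicate 1 but read 3661 on Sca1- replicate 1. The part of RNA quality in the Cebpa levels was not tested. Cebpb, Rela and Nfkbia, the gene of an NF-kappaB inhibitor that is itself a target of NF-kappaB, exceeded the mark on all 7 arrays. Nfkbia read 9378 on the feeder array, 6317 on the unsorted array, 22242 and 12520 in the Sca1+ replicates and 44464, 16338 and 16796 in the Sca1- replicates. Like Cebpd, Nfkbia was thus higher on all 5 sorted arrays than on the other 2. The share of all genes with this order was not counted, and the part of these factors in the Saa3 signal was not tested. Of 8 genes tested 0 passed with or without the block.

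The receptors and partners of the 4 proteins gave 10 measured genes, of which 8 were tested and 0 passed with group only. Cd163, the macrophage receptor of haptoglobin-haemoglobin complexes, and Heph, a homologue of Cp, were below the background mark on every array. Lrp1, the receptor of haem-haemopexin complexes, read 3300 on the feeder array, 2350 on the unsorted array, 1566 and 5841 in the Sca1+ replicates and 352, 3936 and 3778 in the Sca1- replicates. Hmox1, the haem-degrading oxygenase gene, and Slc40a1, the iron exporter with which ceruloplasmin works, exceeded the mark on all 7 arrays. Fpr2, a formyl peptide receptor gene whose product also binds serum amyloid A, read 352 on the feeder array, 2277 on the unsorted array, 13305 and 1477 in the Sca1+ replicates and 42135, 7045 and 7041 in the Sca1- replicates. It was the 1 gene of this list called lower in Sca1+ by limma with the block (difference -2.00 ± 0.23, SE; adjusted p = 0.0227), and it overlapped between the fractions. By the same fit 0.989% of all 8591 genes tested were lower, and this list too was chosen with earlier results known. Of the other genes of the list, Tlr2, Tlr4, Scarb1 and Ager, which encode receptors reported to bind serum amyloid A, had log2 differences between -0.97 and 1.17.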

How the data were processed

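Total RNA of 7 mouse fetal liver samples was measured on single-colour arrays. The deposited values are intensity values, 1 signal per probe set and array; the submitters' processing notes name GCOS for the second deposit set, and no software is named for the first. Of 22690 probe sets, 64 are controls, 20380 carry 1 gene symbol, 691 several and 1555 none.

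Each array was scaled so that its mean without the highest and lowest 2% was 500, floored at 64 and taken to log2. As deposited, each array already had a common trimmed mean, between 250.07 and 250.15. A gene was represented by whichever of its probe sets had the largest log2 mean across the 6 arrays that share a table, and tested where it passed a signal of 100 on at least 2 sorted arrays. Sca1+ and Sca1- arrays were compared with limma 3.58.1 in R 4.3.3, with Benjamini-Hochberg adjustment at 0.05. The steps were tested on simulated data. Since no label says that replicates were separate preparations, p-values reflect the spread among these arrays, which may be technical, and the small number of arrays limits precision.

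The members and lists were chosen with earlier results of these data known. Named genes were all 4 members, their 3 nearest genes by profile among genes above 100 on at least 2 of 6 arrays, the highest genes of each list, and all receptors and partners above 100. Genes named outside this rule were chosen after their values were seen. They are those below background, and Pecam1, Stab2, Esam, Cebpa, Adgre1, Fcgr1, Mrc1, C1qa, C1qb, C1qc, Cd5l and Msr1. Scaling, floor, filter, probe set choice, blocks and left-out arrays were varied.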

Additional observations from a re-analysis of the deposited data

Results flagged for a closer look

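Saa3 had opposite directions in the deposit sets. Its log2 difference between Sca1+ and Sca1- was 2.13 in the first set, with 1 array of each, and -1.40 in the second, with 1 Sca1+ and 2 Sca1- arrays. Hpx also had opposite directions, at -0.17 in the earlier set and 0.59 in the later one, with signals close to background. Neither difference between sets was tested.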

How the results depend on the processing

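The number of genes called between Sca1+ and Sca1- was 0 by limma with group only, 1 without the filter, 85 with the deposit set as a block, 80 with the replicate block, and 0 to 0 when each sorted array was left out in turn. Deviations from the group means correlated at r = 0.57 for the arrays numbered 1 and 0.48 for those numbered 2, across 8591 genes, but Sca1+ replicate 2 correlated more with Sca1- replicate 3, at 0.52. Not every array thus correlated best with its own number. With 2 Sca1+ arrays their deviations mirror each other, and no label says that a number marks a shared batch. With 1 array left out, the Saa3 difference between Sca1+ and Sca1- ran from -0.96 (without Sca1+ replicate 1) to 1.26 (without Sca1+ replicate 2), with -0.28 without Sca1- replicate 1, and was 0.34 with the replicate block. That of Hp ran from -5.18 to -0.69 and that of Hpx from -0.27 to 0.63. The Hpx difference was -0.37 with a floor of 16. Between the unsorted and sorted arrays, Hpx lay at -0.14 with quantile normalization, 0.015 with median scaling and 0 with a floor of 2 times the main one. Between the feeder and unsorted arrays, Hpx lay at -0.23, -0.43 and 0 under the same 3 settings. The cause of these shifts was not tested. The differences of Saa3, Hp and Cp between unsorted and sorted arrays, and between feeder and unsorted arrays, kept their direction under every alternative run. The median over all genes of the unsorted minus sorted difference was 0.14, and -0.21 with median scaling.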
